A study of Mus musculus with 2 samples.

Results

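A transcript model that follows an annotated chain of introns from its 5′ end and then stops splicing before the chain is complete is an incomplete splice match missing the 3′ part, which the deposited tables name a prefix. The models described here were selected on reads: they had to be prefixes of annotated genes in both libraries, with the same chromosome, strand and intron coordinates in both and at least 2 reads in each. Of 118073 spliced models of annotated genes found in either library, 228 met this rule, in 193 genes, 174 of them with 1 model and 19 with more. Before matching, replicate 1 held 7418 such models and replicate 2 held 1940, and 794 had a match in the other library at any read count. The 2 libraries form 1 group, adrenal glands of female B6CASTF1/J mice aged 2 months, sequenced from total RNA as long molecules. No treatment or second genotype is given. The labels number the animals 3 and 4 in one field and give both libraries the number 3 and one donor in others, so tests compare 2 libraries whose difference may be technical.

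Most genes end their messenger RNA at one or a few sites where the transcript is cut and a tail of A is added, usually a short distance after a signal of the form AATAAA or ATTAAA. A site inside an intron gives a short transcript with a shortened reading frame if it is used before that intron is spliced out, which is known as intronic or early polyadenylation. A prefix model can also come from a transcript that runs to the normal end but keeps its last intron unspliced, from RNA that was being made or had broken, or from a cDNA primer that bound a run of A inside the RNA. A prefix model by itself names only a pattern of introns, so the place and sequence of its end are given here.

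The windows below show the last 30 bases of 8 models that ended before the end of their annotated parent, with the signal in capitals. The parent is the annotated transcript with the most reads among those whose first introns the model shared. They are shown because both libraries placed the end at the same base, or within 5 bases for Fzd3 and Zscan29, with a signal just before it. Fzd3 and Zscan29 ended at no annotated position. The other ends lay exactly on annotated transcript ends in both libraries, so their shared base may be a recorded position. The sequences are those of GENCODE M21 transcripts on build mm10, 5′ to 3′ on the strand of the gene, at the position of replicate 1. They are reference bases, and bases in which the B6CASTF1/J mice differ from the reference are not seen.
Sik3, chr9:46202856-46202885, plus strand: agggaagttgaAATAAAatggttttcatgg
Lrp6, chr6:134540774-134540803, minus strand: taaagcttatacaATTAAAaaatataaaaa
Bcan, chr3:87992514-87992543, minus strand: ataaatctgtATTAAActgctttgtaccca
Pik3c2g, chr6:139861726-139861755, plus strand: aAATAAAagcgattatgaaatcatgtgccc
Ppp3cb, chr14:20507671-20507700, minus strand: catgaaAATAAAaaaattatacgtaaagca
Tbc1d31, chr15:57959373-57959402, plus strand: atttttagcAATAAAcatctttatatatgt
Zscan29, chr2:121165641-121165670, minus strand: tttttaaaataAATAAAtcatggctgaaag
Fzd3, chr14:65235248-65235277, minus strand: agcgatgAATAAAattgaaggtgacaatat

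A second set of models ended inside an exon, and the windows that follow are the 20 bases after the end, with each A in capitals. The first 4 hold 12 or more A, and Hsp90ab1 and Vegfd are shown for contrast with 8 and 3. These ends too lay exactly on annotated transcript ends in both libraries, so they may be recorded positions.
Mtdh, chr15:34134345-34134364, plus strand: AAAAAgAAAAAgAAgAAAAA
Eif5, chr12:111541728-111541747, plus strand: AAAgAAAgAAAAggAAAAgA
Hsp90aa1, chr12:110694155-110694174, minus strand: AgAAgAAgAtAAAggAAAAg
Larp1b, chr3:40964036-40964055, plus strand: AAAAAgAAgcAAcAgtgAgA
Hsp90ab1, chr17:45570425-45570444, minus strand: ggAAgAtgAcAgcggcAAAg
Vegfd, chrX:164400781-164400800, plus strand: ctgcAgttgctttgAgtgcA

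Replicate 1 held 1277310 reads and replicate 2 held 520388, of which 1209457 and 502655 fell in annotated nuclear genes. Markers of the adrenal cortex were high in both libraries, with Cyp11a1, the side-chain cleavage enzyme, at 20228 and 19861 CPM, that is counts scaled to the same total of annotated nuclear reads. Their 5 genes summed to 44828 and 59108 CPM. The 4 medulla markers summed to 6231 and 4333 CPM and the 4 adipocyte markers to 7061 and 6830 CPM. The 3 kidney markers had 6 reads and 1 read in all, and the 2 liver markers 151 and 25.

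The shared models were a small part of each library. They held 4810 reads in replicate 1, which was 0.398% of annotated nuclear reads (exact Clopper-Pearson 95% interval 0.387 to 0.409). In replicate 2 they held 1300 reads, or 0.259% (0.245 to 0.273), and such intervals cover counting error only. All prefix models together, matched or not, held 1.72% of annotated nuclear reads in replicate 1 (1.70 to 1.74) and 0.664% in replicate 2 (0.642 to 0.687). Of all prefix models, 69.1% in replicate 1 and 80.8% in replicate 2 had a single read. The median shared model had 6 reads in replicate 1 and 3 in replicate 2, with highest values of 597 and 71. Of the 228 models, 107 had exactly 2 reads in the library where they had fewer, and 24 had 10 or more reads in both. The models held a median of 4.44% of their gene's reads in replicate 1 and 6.20% in replicate 2, and 59 held over 10% in both.

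At the read threshold lay AC110206.1, with 13 and 2 reads in replicates 1 and 2, and the 4-intron and 6-intron models of AC149090.1, with 2 and 6 reads and 3 and 2 reads. Just outside it were matched models of 0610030E20Rik with 1 and 1 reads, of 2410006H16Rik with 2 and 1, and of 2410018L13Rik with 1 and 1. In all, 566 matched models had 1 read in at least 1 library.

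**Figure D1:**
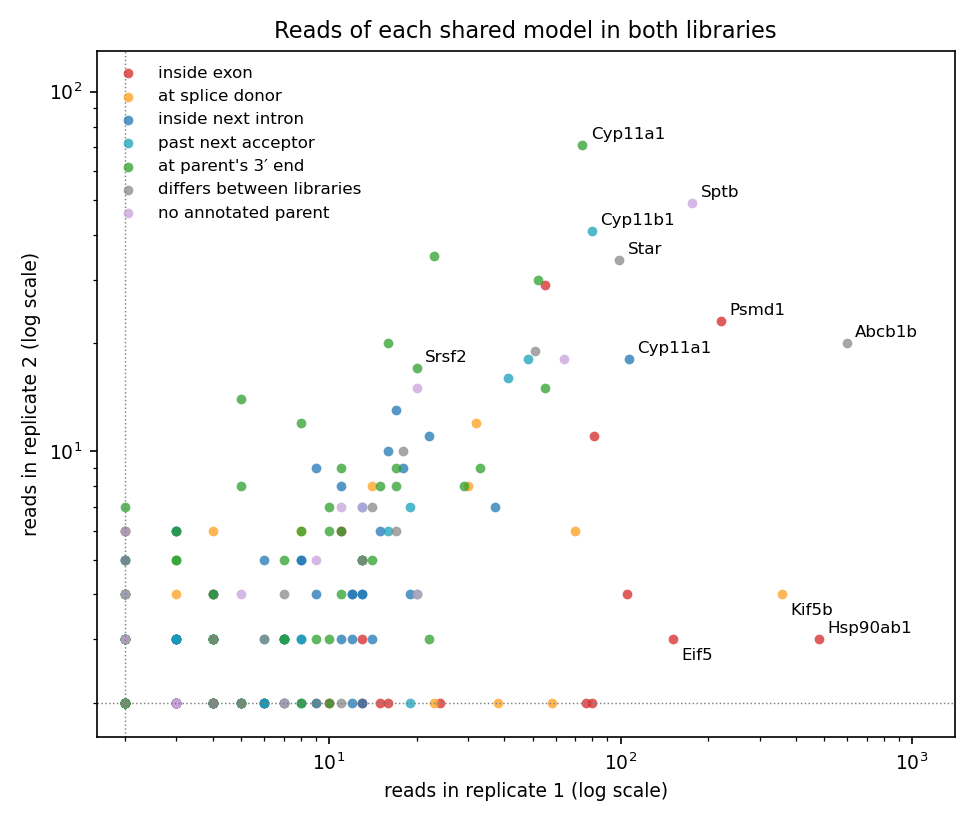
Reads of each of the 228 models in replicate 1 (horizontal, log scale) and replicate 2 (vertical, log scale), coloured by the place of the 3′ end, with the 2-read minimum as dotted lines. Kif5b, Hsp90ab1 and Eif5 lie far to the right with 3 or 4 reads in replicate 2, while Cyp11a1 and Sptb are among the highest in both.

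A parent was found in M21 for 213 models, and 197 of these parents are protein-coding. The models spliced a median of 6 introns, from 1 to 30. Of the parents' introns, 104 models lacked 1, 24 lacked 2 and 85 lacked 3 or more, up to 31. The kind of place where the deposited 3′ end lay, though not always the base, was the same in both libraries for all but 22 of the models with a parent. Of the 228 models, 69 (30.3%) reached or passed the 3′ end of the parent, allowing 50 bases, and 23 ran through the next intron into a later exon or intron and stopped short of that end. A further 61 ended inside the next intron, 19 ended at the splice donor where that intron starts, and 19 ended inside an exon of the parent before that donor. The remaining 15 followed the start of a chain that is no annotated parent's.

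The deposited end need not be where each read ended. Of all prefix models, 2407 in replicate 1 lay exactly on the 3′ end of an annotated transcript of the gene and only 32 lay 1 to 50 bases from one. In replicate 2 these counts were 1000 and 4. Another 2845 and 332 lay exactly on an annotated splice donor. Of the shared models, 132 sat on annotated transcript ends in both libraries and 20 on annotated donors in both. The ends of 179 models lay within 25 bases of each other, 157 of them at the same base. Agreement at an annotated position may therefore be agreement of the recorded position. Of the 46 models whose ends lay at neither kind of position in both libraries, 31 ended within 25 bases and 22 at the same base.

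As deposited, the largest group, the 69 models that reached the parent's end, extended over the 3′ part of the gene. In 64 of them the end lay exactly on an annotated transcript end in both libraries, so it may be a recorded position. Their deposited last exon ran across the parent's last intron without splicing it in 58 models and across the last 2 introns in 8. In all 67 with a coding parent the deposited span covered 100% of its coding bases. The first intron they left unspliced had a median length of 299 bases, and in 39 it was under 400 bases. For Zswim9, with 7 and 2 reads, it was an annotated gap of 1 base. In 55 of the 69 the parent had more reads than the model in both libraries.

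In this group stood Cyp11a1, which starts steroid synthesis by cutting the side chain of cholesterol. Its 6-intron model had 74 reads in replicate 1 and 71 in replicate 2, beside 14687 and 6968 reads of the parent, and it kept the last 2 introns. Its share of the gene's reads was 0.302% and 0.711%, a difference with an adjusted p of 2.37e-05 in the exact test described further on, but of less than the 10 percentage points needed for a call. A 5-intron model that kept 3 introns had 14 and 5 reads. Mrap, the partner that carries the corticotropin receptor to the cell surface, had a 1-intron model with 16 and 20 reads, or 1.69% and 4.49% of the gene, so replicate 2 was the higher. Cyp11b2, the aldosterone synthase, had 55 and 15 reads that kept its last intron of 266 bases, or 4.19% and 3.54%. Cyp11b2 and its neighbour Cyp11b1 are close paralogs, so the division of reads between them is uncertain. Pnmt, which makes adrenaline in the medulla, had 10 and 3 reads, or 2.07% and 3.06%.

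**Figure D2:**
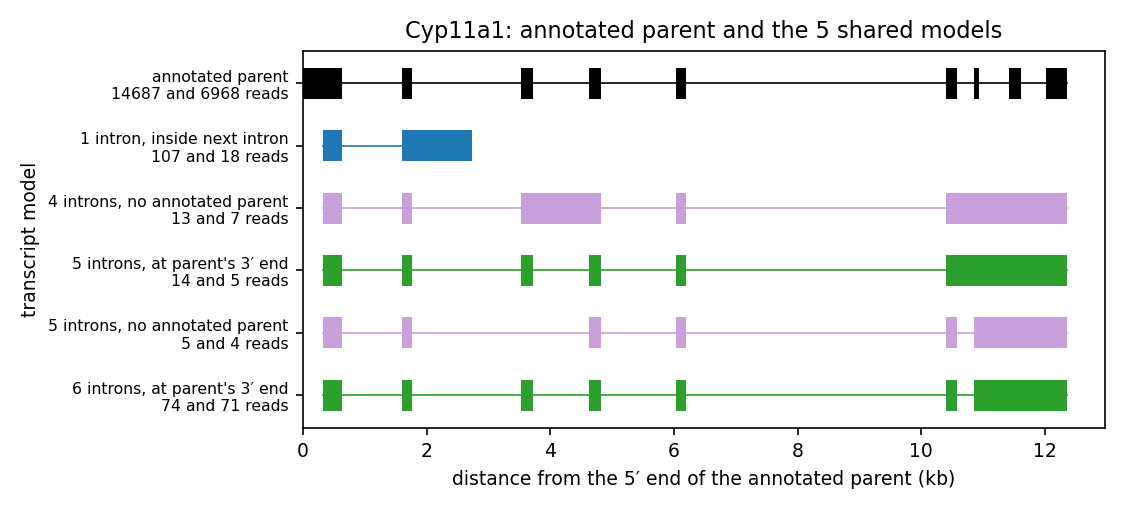
Exons (boxes) and spliced introns (lines) of the annotated Cyp11a1 parent and of the 5 shared models, by distance from the parent's 5′ end in kb, with reads in replicates 1 and 2. The model with 107 and 18 reads ends within the second intron, and the other 4 run to the parent's 3′ end with 1 or more introns unspliced.

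Genes outside steroid synthesis were in the same group. Srsf2, a splicing factor of the SR family, had a 1-intron model of 20 and 17 reads, or 4.71% and 11.6% of the gene. Mbd3, a subunit of a chromatin remodelling complex, had 3 such models that differed further upstream and all kept an intron of 76 bases. The most abundant had 52 and 30 reads, or 13.6% and 20.8%. H2-D1, a classical class I histocompatibility gene, had 3 models that kept the last 1, 2 or 3 introns, with 33 and 9, 5 and 2, and 4 and 3 reads. H2-D1 belongs to a family of near-identical genes, so these counts are uncertain. Fkbp8, a mitochondrial immunophilin, had 3 models that all kept an intron of 252 bases, the highest with 10 and 6 reads. Qsox2, which forms disulfide bonds, had 13 and 5 reads, or 48.1% and 83.3% of few gene reads. AC149090.1, on an unplaced contig, reached 23 and 35 reads, or 10.1% and 20.5%. Of the 69 models, 57 had a higher share of the gene in replicate 2 and 12 in replicate 1, beside 156 and 72 of all 228, and the 2-read minimum favours a higher share in the shallower replicate 2. Of the 31 that were tested none was called, and 3 had an adjusted p under 0.05 at a smaller difference, among them Cyp11a1 and Mrap. Over all models tested, 1044 of 12340 had an adjusted p under 0.05 at a difference of any size.

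The 61 models that ended inside the next intron, in 60 genes, are the form closest to intronic polyadenylation. That intron was long, with a median of 2735 bases and a range of 362 to 110454. The end lay a median of 967 bases past the donor in replicate 1, from 71 to 3845. Over the 56 with a coding parent, a median of 64.9% of the coding bases lay before the end, and 21 kept less than 50%. The median share of the gene's reads was 8.65% in replicate 1 and 16.7% in replicate 2, and 25 held over 10% in both. In 20 the model had more reads than its parent in both libraries, and in 10 the parent had no read in either. In replicate 1 the end was that of an annotated coding transcript for 14, of an annotated retained-intron transcript for 11, and of no annotated transcript for 28. A first exon chain that is a prefix of one transcript can thus end where another annotated transcript of the gene ends.

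Cyp11a1 had the most reads in this group, in a model with its first intron spliced that ended 967 bases into the second intron. It had 107 reads in replicate 1 and 18 in replicate 2, or 0.437% and 0.180% of the gene, and held 26.4% of the coding bases. The adjusted p of that difference was 0.00367, again below the size needed for a call. The 20 bases after its end in replicate 1 were not A-rich, and the transcripts of M21 gave no bases before the end in which to look for a signal. Sik3, a salt-inducible kinase, had 17 and 13 reads that were 51.5% and 52.0% of the gene's, against 0 and 3 of the parent. It ended 815 bases into the next intron, at the end of an annotated coding transcript. Lrp6, a Wnt co-receptor, had 18 and 9 reads, or 81.8% and 75% of its gene, in a model with 1 of 22 introns spliced that held 9.28% of the coding bases. No read of its parent was found in either library.

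Ccdc9, a coiled-coil protein gene, had 22 and 11 reads, or 37.3% and 47.8%, and ended 274 bases into an intron of 362. Its signal lay farther upstream than the last 30 bases. Pik3c2g, a class II phosphoinositide 3-kinase, had 37 and 7 reads, or 20.1% and 18.9%. Bcan, a matrix proteoglycan, had 9 and 9 reads, or 8.65% and 25%, with 70.6% of the coding bases. Cops7a, a subunit of the COP9 signalosome, had 16 and 10 reads, or 8.12% and 6.85%. Luc7l2, a splicing factor gene, had 15 and 6 reads, or 27.8% and 26.1%, and ended 1572 bases past the donor in replicate 1 and 406 in replicate 2. Ppp3cb, a catalytic subunit of calcineurin, had 6 and 5 reads, or 31.6% and 38.5%. Ankrd11, a chromatin regulator, had 19 and 4 reads, or 15.1% and 33.3%, and held 9.38% of the coding bases. None of the differences in share in these 7 genes was called.

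In steroid synthesis, 2 other genes had ends inside an intron at the lowest counts. Nr5a1, the transcription factor of steroid-producing cells, had 2 and 3 reads ending 551 bases past the donor, with 17.6% of the coding bases. Fdxr, the reductase that passes electrons to the mitochondrial P450 enzymes, had 3 and 2 reads ending 431 bases past the donor.

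The 23 models that ran past the next acceptor and stopped short of the parent's end lay between these forms. Cyp11b1, the 11-beta-hydroxylase of corticosterone synthesis, had 80 and 41 reads in a model that kept its last intron of 366 bases, or 0.574% and 0.513% of the gene. It held all coding bases, and its end in replicate 1 was followed by an A-rich stretch, with 13 A among 20 bases. Replicate 2 placed the end of this Cyp11b1 model at another base, followed by 8 A, which is not A-rich. Meg3, an imprinted noncoding RNA, had 48 and 18 reads, or 17.1% and 16.5%. Abcb1b, an efflux transporter of the cell membrane, had a 5-intron model of 41 and 16 reads, or 0.802% and 1.25%. Akr1cl, an aldo-keto reductase gene, had 13 and 7 reads, or 0.671% and 0.868%, Atg3, an enzyme of autophagy, had 8 and 3, or 4.40% and 4.17%, and Star had a 1-intron model of 2 and 2 reads. Star, the protein that brings cholesterol into mitochondria, also had a 5-intron model of 99 and 34 reads, or 0.872% and 0.685%. Replicate 1 placed its end past the acceptor of the last intron and replicate 2 placed it inside that intron.

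Summed over models, the 38 that ended inside an exon or at a donor held different parts of the 2 libraries. Those inside an exon had 1365 reads in replicate 1 and 112 in replicate 2, which was 0.113% (0.107 to 0.119) and 0.0223% (0.0183 to 0.0268) of annotated nuclear reads. Those at a donor had 677 and 81 reads, or 0.0560% (0.0518 to 0.0604) and 0.0161% (0.0128 to 0.02). Models at the parent's end went the other way, with 676 and 450 reads, or 0.0559% (0.0518 to 0.0603) and 0.0895% (0.0814 to 0.0982). The intervals of models inside the next intron overlapped, with 581 and 249 reads, or 0.0480% (0.0442 to 0.0521) and 0.0495% (0.0436 to 0.0561). Single models were mixed. Inside an exon, 13 models had a lower share of their gene in replicate 2 and 6 a higher one. At a donor, 8 were lower and 11 higher. Hsp90ab1 alone held 480 and 3 of the reads inside an exon. Over all prefix models, ends on an annotated donor were 38.4% in replicate 1 and 17.1% in replicate 2, and ends on an annotated transcript end were 32.4% and 51.5%.

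**Figure D3:**
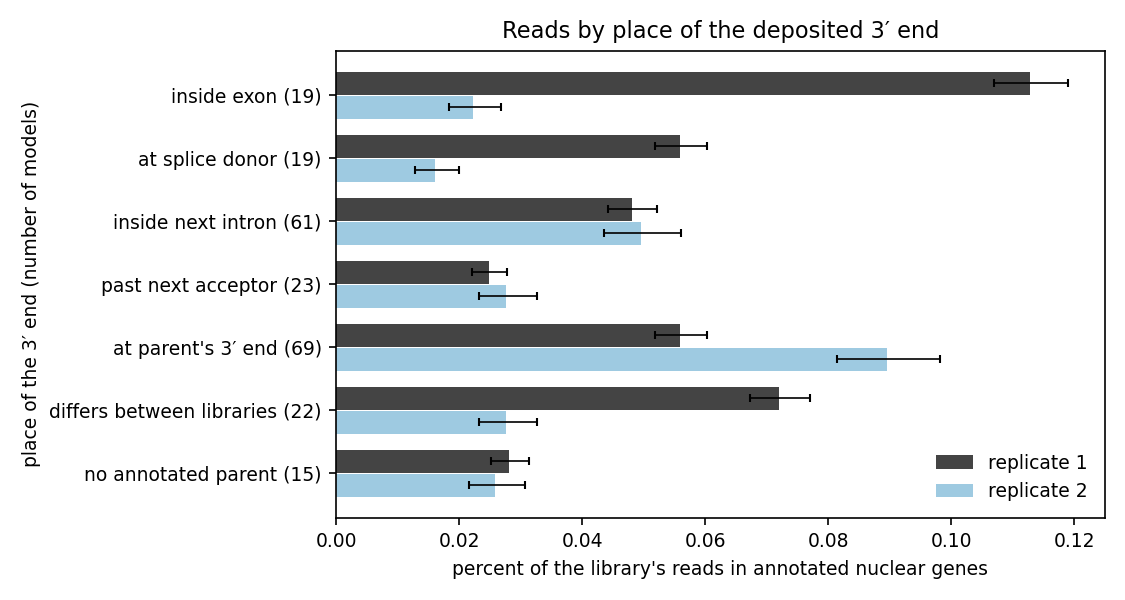
Reads of the 228 models as a percent of each library's reads in annotated nuclear genes (horizontal) by the place of the 3′ end, with exact 95% intervals as bars. Ends inside an exon or at a donor held more of replicate 1, ends at the parent's 3′ end held more of replicate 2, and the intervals for ends inside the next intron overlap.

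Fisher's exact test (two-sided) set each model's reads against the other reads of its gene in the libraries, over 12340 spliced models with 10 or more reads. Models were called where the Benjamini-Hochberg adjusted p was under 0.05 and the shares differed by 10 points or more. Over all models tested, 6.09% were called, 4.78% higher in replicate 2 and 1.31% lower. Of the 113 shared prefix models tested, 13 were called, and all 13 were lower in replicate 2. The median difference in share, replicate 2 minus replicate 1, was -0.05 points for these and 1.78 points over all models tested. The minimum of 2 reads is a larger share of the shallower replicate 2, so the choice of models bears on this count. All prefix models tested, without that minimum, gave 61 calls of 346, of which 60 were lower in replicate 2. By the end in replicate 1, 12 of the 13 called models ended inside an exon or at a donor, of 32 tested that did, and 1 of 81 tested with any other end was called.

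Among ends inside an exon, Psmd1, a regulatory subunit of the proteasome, had 221 and 23 reads. These were 75.4% (70.1 to 80.2) and 30.3% (20.2 to 41.9) of the gene's reads, with an adjusted p of 1e-10. The model spliced 21 introns and ended 51 bases before the next donor, after 88.0% of the coding bases. Eif5, a translation initiation factor, had 151 and 3 reads, or 28.8% and 1.12%, with an adjusted p of 2.49e-24. Hsp90aa1, the inducible cytosolic Hsp90 chaperone, had 105 and 4 reads, or 32.3% and 1.53%, with an adjusted p of 2.7e-23. Hsp90ab1, the constitutive form, had 480 and 3 reads, or 13.7% and 0.164%, with an adjusted p of 1.96e-83. In these 4 genes replicate 1 was the higher in reads and in share.

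Larp1b, an RNA-binding protein gene, had 24 and 2 reads, or 45.3% and 6.25%, Mtdh, a protein of the endoplasmic reticulum and nucleus, had 80 and 2, or 47.9% and 4.55%, and Naa25, a subunit of an N-terminal acetyltransferase, had 76 and 2, or 63.3% and 13.3%. At donors, Kif5b, a kinesin heavy chain, had 357 and 4 reads, or 63.5% and 6.15%, with an adjusted p of 5.51e-18. Sec62, a part of the translocation channel, had 70 and 6 reads, or 55.1% and 8.57%. Smap1, a regulator of Arf6, had 38 and 2, or 59.4% and 8.00%, and Nop58, a core protein of small nucleolar particles, had 58 and 2, or 47.5% and 8.33%. Abcb1b had the most reads of all in a 1-intron model, 597 and 20, or 11.7% and 1.57%, with an adjusted p of 8.88e-35. Its end was the donor of the second intron in replicate 1 and 1006 bases into that intron in replicate 2. Abcb1b had 6 shared models, the most of any gene, and its 3-intron model, with 51 and 19 reads, was likewise placed at a donor in replicate 1 and 987 bases past it in replicate 2. Dab2, an endocytic adaptor, had 11 and 2 reads, or 14.1% and 1.44%, with an end that was at the donor in replicate 2 and 3068 bases past it in replicate 1. Of the 113 models tested, 24 had an unadjusted p under 0.05, beside 2225 of the 12340 over all models tested.

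**Figure D4:**
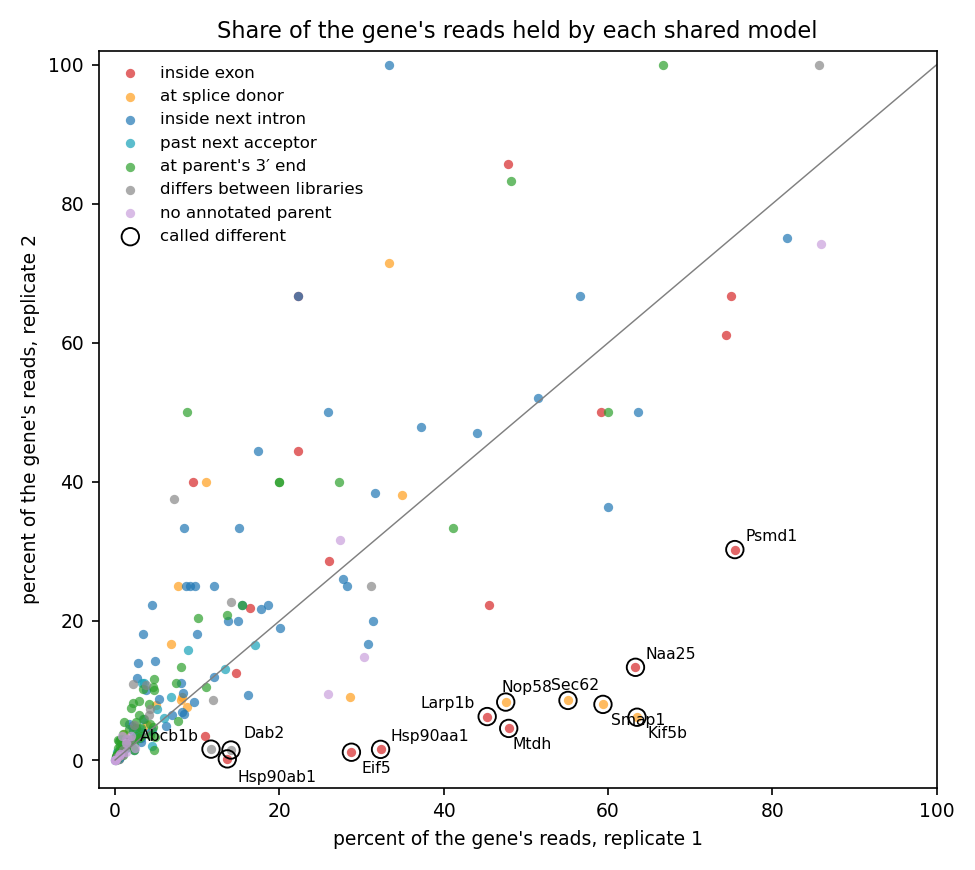
Percent of the gene's reads held by each of the 228 models in replicate 1 (horizontal) and replicate 2 (vertical), coloured by the place of the 3′ end, with the line of equal shares. The 13 models called different (black circles) all lie below the line.

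Bases after the end were known for 18 of the 19 models that ended inside an exon, and for 72 of all 228, so a check of A content over all models, which found 14 A-rich, is void. In 14 of the 19 models inside an exon the end lay exactly on an annotated transcript end in both libraries. There it may be a recorded position and not where the reads ended. More than 10 A among the 20 bases after the end counted as A-rich. This held for 10 of the 18, with a median of 11.5 A, and for 5 of the 6 called ones among them. Besides the genes printed above they included Son, Ncor1, Phf20, Thoc2 and Ggnbp2. Of the 10 A-rich models, 9 had a lower share in replicate 2, and of the 8 others 3 did. The A-rich ones had 716 and 53 reads and the others 573 and 57, of which Hsp90ab1, with 8 A, made up 480 and 3. Son, a nuclear speckle protein, had 81 and 11 reads, or 74.3% and 61.1%, and ended inside its long exon after 5.22% of the coding bases, before a window with 16 A. Bases after the end were known for 13084 annotated ends of protein-coding transcripts, beside 38919 with known bases before it. Of the 13084, 9.55% were A-rich. Of 2173 shared models missing the 5′ part, these bases were known for 748 in replicate 1 and 702 in replicate 2. A-rich were 10.6% of the 748 and 6.55% of the 702. With under 80% known, these values do not describe all such ends. The part of A-rich priming in the difference between the libraries was not tested. The models of Kif5b, Sec62, Smap1 and Nop58 at a donor had no known bases after the end.

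**Figure D5:**
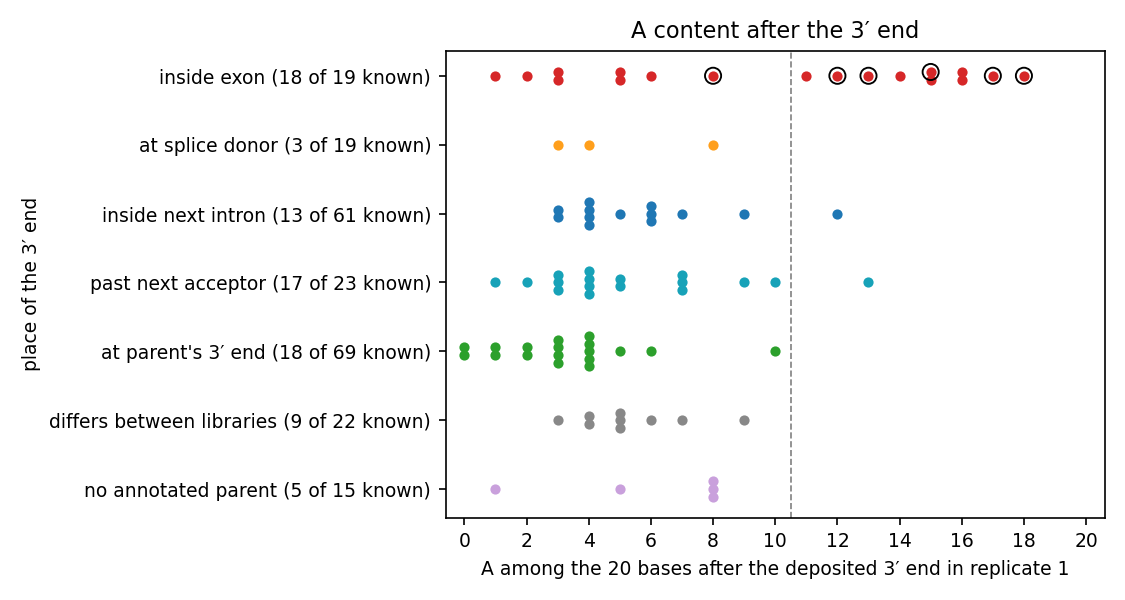
Number of A among the 20 bases after the deposited 3′ end in replicate 1 (horizontal), one point per model with known bases, by the place of the end; black circles mark models called different and the dashed line the limit above which an end was A-rich. Of the ends inside an exon, 10 lie above the limit, and at most 1 model of each other place does. Ends on an annotated transcript end may be recorded positions.

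Some ends inside an exon were neither A-rich nor called. Ccnl2, a cyclin of the splicing machinery, had 55 and 29 reads, or 16.5% and 21.8%. Its end lay inside an exon only of its parent, an annotated retained-intron transcript. Replicate 1 placed the Ccnl2 end on another annotated donor of the gene, and replicate 2 at no annotated position 896 bases away. Fzd3, a Wnt receptor, had 13 and 3 reads, or 59.1% and 50%, ending 334 bases before the next donor after 53.6% of the coding bases. Vegfd, a growth factor of lymphatic vessels, had 11 and 6 reads, or 47.8% and 85.7%. Among the A-rich ones, Ncor1, a nuclear corepressor, had 15 and 2 reads and ended on the end of an annotated transcript whose 3′ end M21 itself tags as not found.

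At donors, other models had closer shares. Plin1, which coats lipid droplets in fat cells, had 3 models ending at the same donor, with 32 and 12, 14 and 8, and 4 and 6 reads. The first 2 held 8.74% and 7.59%, and 3.83% and 5.06% of the gene. Eif5b, a translation initiation factor, had 30 and 8 reads, or 34.9% and 38.1%. Pofut2, which adds fucose to secreted proteins, had 8 and 6 reads, or 8.00% and 8.57%.

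A signal, either AATAAA or ATTAAA on the strand of the gene, was sought in the last 50 bases, and had to be there in both libraries. These bases were known in both for 175 of the 228 models, which at 76.8% is too few for a statement on all of them. Signals stood in 114 of the 175. By place, 59 of 63 models at the parent's end had one, 6 of 17 inside an exon and 1 of 19 at a donor. For ends inside the next intron the check is void, with bases known for 35 of 61, of which 29 had a signal. It is also void past the next acceptor, with 13 of 18. Known bases come from annotated transcripts, so ends on annotated transcript ends are over-represented among them. Taken per library, 120 of 182 known ends had a signal in replicate 1 (65.9%) and 128 of 185 in replicate 2 (69.2%). Counted in the same way, 81.3% of shared models missing the 5′ part had a signal in replicate 1 and 83.5% in replicate 2. Of annotated protein-coding ends 61.4% had one.

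Candidates for early polyadenylation had ends within 25 bases of each other, a signal in both libraries and bases after the end that were known and not A-rich in either. This held for 36 models, of which 16 ended at the parent's end and 20 before it. The 16 met the rule but did not end early relative to the parent. Because so few of the bases after the ends were known, the count was also taken without the A rule, which gave 110 models. Of those, 59 ended at the parent's end, 4 had no annotated parent, and 47 in 47 genes ended before the parent's end. Of these 47, 28 ended inside the next intron, 12 past the next acceptor, 6 inside an exon and 1, Pofut2, at a donor. They had 470 reads in replicate 1 and 199 in replicate 2, with a median share of 8.89% and 13.9% of the gene. In 11 both libraries had 5 or more reads. In 38 the signal was within the last 30 bases and began a median of 21.5 bases from the end, from 7 to 29. In 31 part of the coding bases lay beyond the end, in 12 none did, and in 4 the parent had no coding bases. In replicate 1, 40 of the 47 ended exactly on an annotated transcript end, 18 of them that of a coding transcript and 12 of a retained-intron one.

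The 47 include the 20 that met the A rule, 2 that were A-rich, Larp1b and Map3k10, and 25 whose bases after the end were not known. Sik3, Lrp6, Bcan, Pik3c2g and Ppp3cb belong to the 25. Naa25 does too, with 76 of the 470 reads of the 47 in replicate 1. Its last 30 bases end in a run of A, and its signal lay farther upstream than these. Zscan29, a zinc-finger gene, had 14 and 3 reads, or 63.6% and 50%, and ended 403 bases into an intron, at no annotated position. Tbc1d31, a centrosomal protein gene, had 4 and 4 reads, or 17.4% and 44.4%. Rsrp1, Acd, Clk2, Ldb1, Nde1, Cops6, Hnrnpd, Dnpep, H3f3b, Fabp4, Cul9, Gm21988 and Gm44597 had 2 to 6 reads in replicate 2. Of the 47, 24 were tested and 2, Larp1b and Naa25, were called.

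Without an annotated parent, Sptb, the erythroid spectrin beta chain, had 176 and 49 reads, or 85.9% (80.3 to 90.3) and 74.2% (62.0 to 84.2) of its gene. Replicate 1 ended it at no annotated position and replicate 2 on an annotated transcript end 1268 bases away. Dus1l, a tRNA-modifying enzyme, had 64 and 18 reads, or 27.4% and 31.6%. Bmp1, a secreted protease, had 20 and 4, or 30.3% and 14.8%, and Chpt1, an enzyme of phosphatidylcholine synthesis, had 20 and 15, or 1.93% and 3.42%. Cyp11a1 had 2 models of this kind, with 13 and 7 and with 5 and 4 reads, which ran to the gene's 3′ end. Cyp11b1 had 2 and 3 reads and 2 and 4 reads in 2 models.

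By gene list, 9 of 21 detected steroid synthesis genes held 16 of the models: Akr1b7, Cyp11a1, Cyp11b1, Cyp11b2, Fdx1, Fdxr, Mrap, Nr5a1 and Star. Of all 9942 detected genes, 1.92% held a model, and not all of the 193 genes with a model were counted among these. The share of genes with a model was higher in genes with more reads. It was 0.821% of genes with 3 to 10 reads and 20.0% of the 35 genes with 1000 or more. Cyp11a1 and Star are themselves among those 35. The part of read number in the count for the steroid synthesis list was not tested. The median share of the 16 was 0.288%, against 6.48% over the 228, and of 8 tested none was called. Fdx1, the ferredoxin of the mitochondrial P450 enzymes, had 2 and 3 reads and Akr1b7, an aldose reductase of the cortex, 2 and 6 reads, both at the parent's end. Medulla genes gave 1 of 17 (Pnmt) and mitochondrial energy genes 1 of 18 (Uqcrc1, with 3 and 2 reads). None was found among 29 detected genes of cholesterol supply, 27 of the cleavage and polyadenylation machinery or 7 genes that textbooks name for truncated forms.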

How the data were processed

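Long-read RNA sequencing of adrenal gland was deposited for 2 libraries, each as a count table by transcript model with the models' exon positions. The counts deposited by the authors are whole numbers that were not normalised. Per the deposited readme files they derive from filtered alignments on build mm10 with GENCODE M21. Models not in M21 carry the source TALON. How a model's 3′ end was set, the aligner, the platform and the release of TALON are not given in the sources. An input of 1 µg RNA is labelled for replicate 1 only. The models and gene lists were chosen with earlier results of these data known.

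Prefix models were matched between libraries by chromosome, strand and all introns, and reads of models with equal introns were summed. Shares are percent of the gene's deposited counts, with exact Clopper-Pearson 95% intervals. A place counted as the parent's end within 50 bases and as a donor within 10. A genome sequence was not used here: bases were read from M21 transcripts, which replaces the genome named in the plan. The window after 1 of these ends is not reported here. A check with bases known for under 80% of models was treated as void. Shares were compared by Fisher's exact test (SciPy 1.17.1, pandas 2.3.3, NumPy 2.4.6, Python 3.11.15, matplotlib 3.10.9), which was tested on simulated data.

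Named models were the 15 with the most reads in their lower library, the 15 with the highest mean share in genes of 20 or more reads in each library, the 15 candidates with the most reads, the 10 called models with the largest difference, all in the gene lists, and 3 each inside and outside the read minimum. All others named, among them Lrp6, Bcan, Pik3c2g, Ppp3cb, Cops7a, Ankrd11, Son, Vegfd, Plin1, H2-D1, Fkbp8, Chpt1, Hsp90ab1, Dab2 and Zswim9 where outside these rules, were chosen after their values were seen. Alternatives covered read minimums, distances, signal and A rules, test minimums and leaving out each replicate.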

Additional observations from a re-analysis of the deposited data

How the results depend on the processing

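Of 37 alternatives to 9 results, 29 stayed within 1.5 times the reported count or within 1 SD, and 8 moved. The percent of reads is a mean of 2 libraries, so leaving out either one always stays within 1 SD. Those alternatives could not move, and their place among the 29 says nothing about stability. The read minimum moved most: the 228 models became 121, 64 and 24 at 3, 5 and 10 reads in each library. At 5 reads, models inside the next intron fell from 61 to 13, models at the parent's end from 69 to 23, and candidates that also met the A rule, counted at any place, from 36 to 9. Without the A rule, chosen as an alternative after seeing the data, there were 110 candidates at any place, 59 of them at the parent's end. A run of 6 A in place of more than 10 gave 7 A-rich ends instead of 14. The count of called models was 12 to 17. Leaving out 1 replicate gave 0.259% to 0.398% of reads, 120 to 128 models with a signal and 12 to 13 A-rich. It also gave 67 to 70 inside the next intron, 41 to 42 candidates at any place and 71 to 76 at the parent's end. No paired analysis was possible because the 2 libraries form 1 group. Low depth limits many models: 107 of 228 had exactly 2 reads in the library where they had fewer, or in both, and replicate 2 held fewer reads than replicate 1.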
